A study of Mus musculus with 3 samples.

Results

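A set of 6 genes was followed through mouse skin development: the RNA-binding protein genes Igf2bp1, Igf2bp2, Igf2bp3 and Lin28b, and the high mobility group A genes Hmga1 and Hmga2. They were chosen by name as fetal growth regulators under let-7 control, and are 6 of the 21877 gene rows present in all 3 tables. RNA was sequenced from whole skin of the inbred mouse strain FVB at 3 ages, late gestation (embryonic day 18.5, E18.5), the newborn period (postnatal day 3, P3) and adulthood (10 weeks). The column headers call all 3 groups WT, and the labels name no treatment. The design text speaks of 2 biological replicates per age, but the tables used here hold 1 averaged value per gene and age. No spread between animals was available, so no difference below has an error or a p-value.

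The 3 Igf2bp proteins, also called IMP1 to IMP3, are close relatives with RNA recognition motifs and KH domains. They bind mRNAs in the cytoplasm and affect their stability, transport and translation. Hmga1 and Hmga2 encode small chromatin proteins whose AT-hooks bind the minor groove of AT-rich DNA. Lin28b encodes a protein that blocks the maturation of let-7 precursors. The let-7 microRNAs accumulate as tissues mature and repress mRNAs that pair with their seed. Hmga2, Lin28b and the Igf2bp genes are well-described let-7 targets, and all of these genes are called oncofetal because many tumours express them again.

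The sequences that link the 6 genes are the seed shared by the let-7 family and its matches in their 3' UTRs. Of 11 mature mouse let-7 and miR-98 names in RefSeq (GRCm38.p6), 10 carry the same bases 2 to 8, shown in capitals in 9 of them, and let-7j differs there.
mmu-let-7a-5p: uGAGGUAGuagguuguauaguu
mmu-let-7b-5p: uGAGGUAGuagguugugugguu
mmu-let-7c-5p: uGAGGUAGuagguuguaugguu
mmu-let-7d-5p: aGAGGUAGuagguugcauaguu
mmu-let-7e-5p: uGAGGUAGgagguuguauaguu
mmu-let-7f-5p: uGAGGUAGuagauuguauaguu
mmu-let-7g-5p: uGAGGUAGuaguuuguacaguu
mmu-let-7i-5p: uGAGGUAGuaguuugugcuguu
miR-98-5p, the remaining one, reads as follows.
mmu-miR-98-5p: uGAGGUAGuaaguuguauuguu

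The sequence that pairs with this seed, CTACCTC, was searched on the sense strand of the longest annotated 3' UTR of each protein-coding gene (GENCODE M21, GRCm38). It occurs at least once in 8.97% of 20943 genes, and its reverse complement GAGGTAG in 7.65%. All 6 genes hold it, 15 times in total. Igf2bp1, Hmga2 and Lin28b have 4 matches each, and Igf2bp2, Igf2bp3 and Hmga1 have 1 each. Match counts were compared with those of 3' UTRs within 20% of the same length, each gene's own included. At least as many were in 2 of 561 (0.357%) for Igf2bp1, 3 of 2227 (0.135%) for Hmga2 and 3 of 1259 (0.238%) for Lin28b. For the genes with 1 match, the share of such 3' UTRs with at least 1 is 12.1% for Igf2bp2, 13.3% for Igf2bp3 and 7.96% for Hmga1. A match is a string of letters and says nothing of binding in these samples, and let-7 targeting was part of how the genes were chosen. For each gene the first match followed by A, or otherwise its first match, is shown with the 14 bases before it, the match and a following A in capitals.
Igf2bp1 (GRCm38 chr11:95961778-95961799, minus strand): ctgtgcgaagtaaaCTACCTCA
Igf2bp2 (GRCm38 chr16:22059473-22059494, minus strand): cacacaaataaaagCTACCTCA
Igf2bp3 (GRCm38 chr6:49086787-49086808, minus strand): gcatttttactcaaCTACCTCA
Hmga1 (GRCm38 chr17:27563278-27563299, plus strand): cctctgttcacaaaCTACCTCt
Hmga2 (GRCm38 chr10:120364224-120364245, minus strand): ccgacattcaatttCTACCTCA
Lin28b (GRCm38 chr10:45381022-45381043, minus strand): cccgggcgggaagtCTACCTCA

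**Figure D1:**
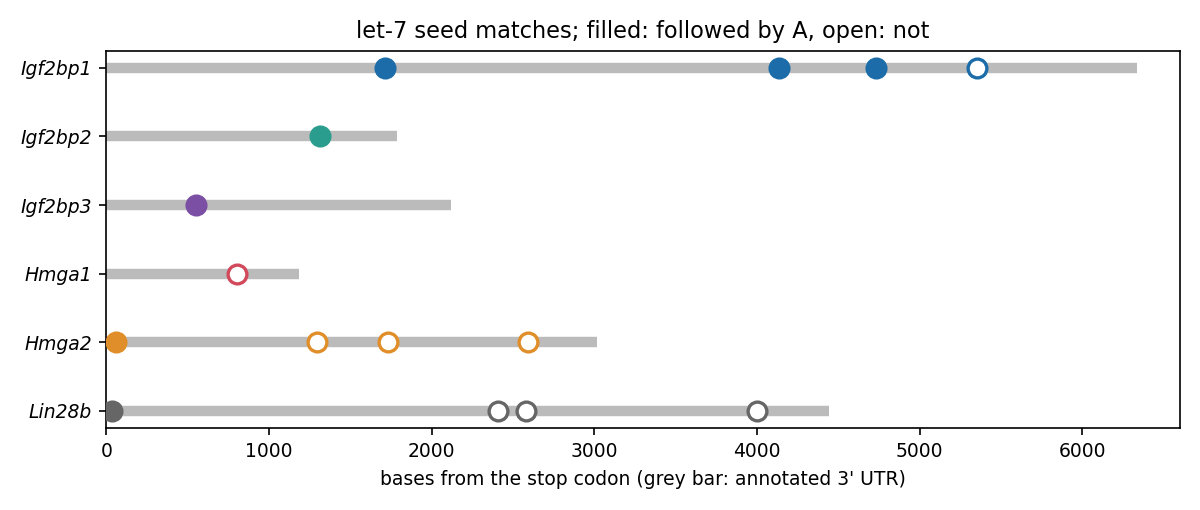
Position of each CTACCTC match, in bases from the stop codon, along the longest annotated 3' UTR of the 6 genes (grey bars). Filled circles are followed by A and open circles are not; Igf2bp1 has 3 filled circles of 4 in a 3' UTR of 6337 bases, and the single match of Hmga1 is open.

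The deposited unit is FPKM, fragments scaled to transcript length and to the size of the library, so levels can be set side by side between genes. FPKM is a share of the library, and read numbers are unknown, so that the precision of values near or under 1 FPKM cannot be stated. A total of 14662 rows reached 1 FPKM at 1 or more ages. Of the 6 genes 5 did so, all but Lin28b. A difference between ages is the log2 ratio of the later to the earlier value, after 1 FPKM was added to both. A gene is called higher or lower when that is at least 1 in size, which is 2-fold on this scale. The scale understates the change of low genes. The defining keratinocyte genes of the labelled tissue were abundant, with Krt5 at 1058 (E18.5), 2638 (P3) and 816 FPKM (10 weeks); 3 values in a row follow this order of ages throughout. Xist, the RNA of the inactive X chromosome, was at 0.0433, 64.6 and 73.0 FPKM and the Y-linked Ddx3y at 24.1 and 0.0218 FPKM and listed at 0, so that comparisons with E18.5 are also between a male and a female pattern of these genes. All 6 genes followed here are on autosomes.

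The 3 Igf2bp genes were all at least 2-fold lower in 10-week than in E18.5 skin, as were 6.92% of all genes tested. The P3 value of Igf2bp3 was above its E18.5 value and that of Igf2bp2 below it, both within 2-fold on this scale. Both genes were called lower at 10 weeks than at P3. Igf2bp1 was low throughout. Their summed level was 25.1, 21.5 and 1.69 FPKM. The sum at E18.5 was 14.9 times that at 10 weeks, and the sum at P3 12.8 times.

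Igf2bp3 (mm9 chromosome 6, 49035217 to 49164953), the relative known in mouse above all from embryonic tissue, had values of 10.8, 14.7 and 0.360 FPKM. The late embryonic and newborn values were thus close to each other and both far above the adult one. The log2 difference was 0.42 for P3 over E18.5, -3.53 for 10 weeks over P3 and -3.11 for 10 weeks over E18.5. Of all genes tested, 1.17% had a lower difference than Igf2bp3 at 10 weeks against P3, and 1.30% at 10 weeks against E18.5. Among genes at or above 1 FPKM, Igf2bp3 ranked above 51.7% in E18.5 skin and 56.8% in P3 skin. Its adult value lay under that minimum, with the status mark NOTEST in place of OK.

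Igf2bp2 (mm9 chromosome 16, 22059082 to 22163372), the member of the family with the best-known adult roles, in metabolism and muscle, stood at 12.6, 5.85 and 1.32 FPKM. Each age was below the one before. The log2 difference was -0.99 for P3 over E18.5, just short of the threshold, and -1.56 for 10 weeks over P3. Over the whole span it was -2.56, a value that 1.74% of genes tested lay below. The call at P3 depends on small choices: with the median of ratios, the upper quartile or a sum without short RNA rows as scaling, the difference was -1.10, -1.19 and -1.04. In the adult, Igf2bp2 was the highest of the 3 relatives and the single one still above 1 FPKM.

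Igf2bp1 (mm9 chromosome 11, 95818478 to 95867258), known in other systems for carrying beta-actin mRNA and for keeping Myc mRNA stable, stood at 1.71, 0.972 and 0.0103 FPKM. It was the lowest of the 3 at every age, reached 1 FPKM at E18.5 alone, and had the status mark NOTEST at 10 weeks. Its log2 difference was -0.46 for P3 over E18.5, -0.96 for 10 weeks over P3 and -1.42 for 10 weeks over E18.5. With a pseudocount of 0.1 FPKM the second was -3.28 and past 2-fold. The third is past 2-fold as reported, but with a pseudocount of 5 FPKM it was -0.42, and with 0.1 FPKM it was -4.03. The size of this change is therefore set by how values near 0 are treated. A pseudocount cannot alter the order of the 3 ages, so these settings do not test that order.

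The make-up of the family differed between ages as well as its level. Igf2bp2 held 50.4%, 27.2% and 78.1% of the summed Igf2bp FPKM. Igf2bp3 held 42.8%, 68.3% and 21.3%, and Igf2bp1 held 6.80%, 4.51% and 0.609%. Igf2bp3 was thus the leading relative in newborn skin, and Igf2bp2 in adult skin, where all 3 were low. The ratio of Igf2bp3 to Igf2bp2 FPKM was 0.851, 2.52 and 0.273.

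**Figure D2:**
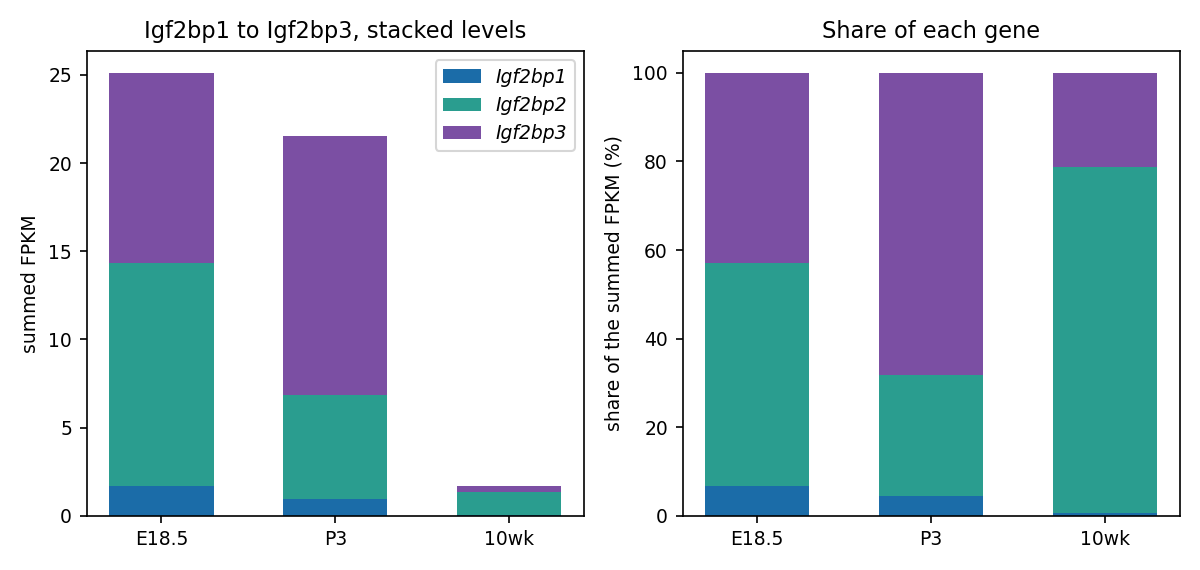
Left, FPKM of Igf2bp1, Igf2bp2 and Igf2bp3 stacked at E18.5, P3 and 10 weeks; right, the share of each in their sum, in percent. Each bar is 1 averaged value with no error; the sum is 25.1, 21.5 and 1.69 FPKM, and Igf2bp3 makes up 68.3% of it at P3.

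Hmga1 had the highest level of the 6 genes at every age and Hmga2 a low one. Hmga1 was highest at P3 and Hmga2 lowest there, and of their differences 1 passed 2-fold, that of Hmga1 at 10 weeks over P3. Hmga1 (mm9 chromosome 17, 27693519 to 27700617), the family member that many dividing cells retain, had values of 22.1, 31.8 and 15.0 FPKM. Its newborn value was the highest and its adult value the lowest. The log2 difference was 0.51 for P3 over E18.5, -1.04 for 10 weeks over P3 and -0.53 for 10 weeks over E18.5. The second is past 2-fold by a small margin, and with a pseudocount of 5 FPKM it was -0.88.

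Hmga2 (mm9 chromosome 10, 119798331 to 119913991), whose loss gives the small pygmy mouse, stood at 3.62, 1.38 and 2.30 FPKM. Its lowest value was the newborn one, and the adult value lay between the others. The log2 difference was -0.95 for P3 over E18.5, 0.47 for 10 weeks over P3 and -0.49 for 10 weeks over E18.5, none of them past 2-fold. As for Igf2bp2, the first passed with the median of ratios (-1.05), the upper quartile (-1.12) and a pseudocount of 0.1 FPKM (-1.33). The ratio of Hmga1 to Hmga2 FPKM was 6.10, 23.0 and 6.53.

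Lin28b (mm9 chromosome 10, 45096425 to 45190007) was measured at 0.0580 (E18.5) and 0.00907 FPKM (P3) and listed at 0 in adult skin. It did not pass the minimum at any age, and no fold is given. Its relative Lin28a, which also blocks let-7 maturation, stood at 0.0521, 0.000749 and 0.137 FPKM. Both Lin28 genes were therefore at or near 0 in whole skin from E18.5 on, at a depth that is not known.

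**Figure D3:**
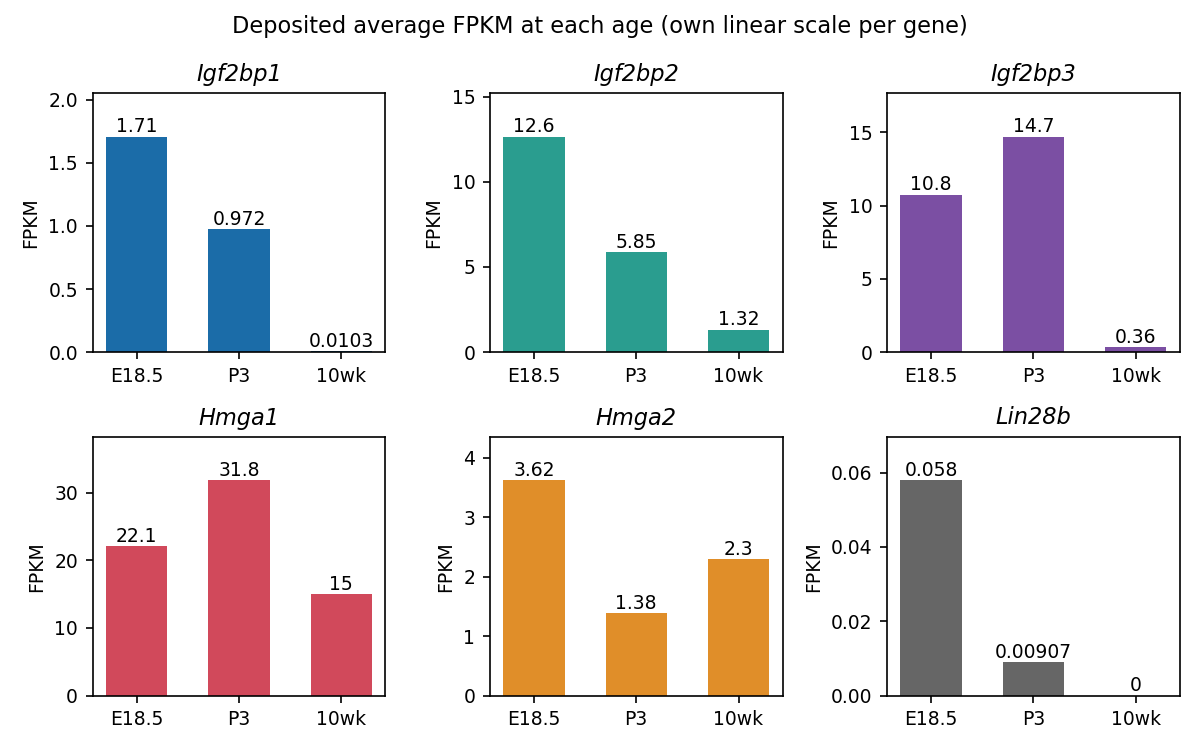
Deposited average FPKM of the 6 genes at E18.5, P3 and 10 weeks, each on its own linear axis from 0. Each bar is 1 averaged value with no error; Igf2bp3 stands at 10.8, 14.7 and 0.360 FPKM, whereas Hmga2 is lowest at P3 with 1.38 FPKM.

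The order of levels shows the same shift from another side. At E18.5 it was Hmga1, Igf2bp2, Igf2bp3, Hmga2, Igf2bp1 and Lin28b. At P3 Igf2bp3 stood above Igf2bp2, with the other places as before. At 10 weeks the order was Hmga1, Hmga2, Igf2bp2, Igf2bp3, Igf2bp1 and Lin28b. With no spread between animals, neighbours such as Igf2bp2 and Igf2bp3 at E18.5 (12.6 and 10.8 FPKM) cannot be said to differ.

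Counted over the 5 genes tested, P3 against E18.5 had 0 calls in either direction, where 9.56% of 14653 genes were higher and 9.42% lower. At 10 weeks 3 of 5 were lower than at P3, Igf2bp2, Igf2bp3 and Hmga1, and 0 were higher. Among all 14655 genes tested there, 9.98% were lower and 19.8% higher. Against E18.5, 3 of 5 were lower at 10 weeks, the 3 Igf2bp genes, and 0 higher, beside 6.92% of 14659 genes lower and 16.1% higher. Of these, Igf2bp1 reached the minimum of 1 FPKM at E18.5 alone (1.71 FPKM), so it was tested only through its highest age. The median difference over all genes was 0.03, 0.14 and 0.22 in these comparisons. Each age has 1 value that enters 2 comparisons, so the counts are not independent.

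**Figure D4:**
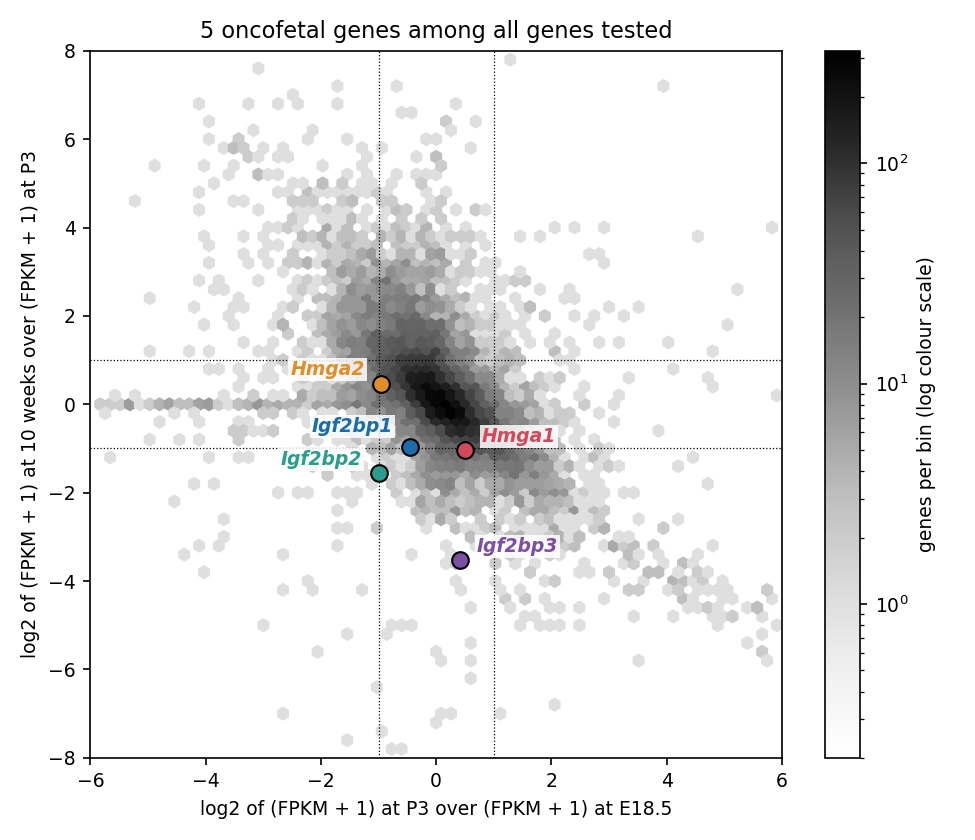
Each gene at its log2 difference for P3 over E18.5 (horizontal) and 10 weeks over P3 (vertical), for 14653 genes as grey hexagons (darker, more genes) and 5 of the 6 genes as coloured points; dotted lines mark 2-fold and 54 genes lie outside the axes. Igf2bp3 lies at 0.42 and -3.53, below the main body of genes, and Hmga2 is the single one of the 5 above 0 on the vertical axis.

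Genes with the most similar course were sought by the distance in the pair of log2 differences, over 3 ages only, among genes with a mean FPKM within 4-fold. Closest to Igf2bp3 were Sprr2d (12.0, 15.2 and 0.253 FPKM), Akr1d1 (4.61, 7.72 and 0.0351) and Cntfr (27.0, 42.7 and 4.50), at distances of 0.19, 0.50 and 0.59. Sprr2d, a cornified envelope gene with close relatives, was the single one of 9840 candidates within 0.2. Closest to Igf2bp2 were the cardiac troponin gene Tnnt2 (24.0, 12.1 and 3.75 FPKM), Pisd-ps1 and Gm10639, with 2 of 9569 candidates within 0.2. Closest to Igf2bp1 were St8sia2 (2.31, 1.49 and 0.184 FPKM), the replication licensing gene Cdc6 (4.49, 3.28 and 1.08) and Serpina3k, with 4 of 3148 within 0.2. More candidates lay near the Hmga genes, whose differences are closer to those of most genes. For Hmga1, 73 of 8815 candidates lay within 0.2, first the Polycomb gene Cbx2 (8.03, 11.8 and 5.14 FPKM), Col4a5 and Lama3. For Hmga2, 64 of 6633 did, first AI597468 (11.2, 5.31 and 7.69 FPKM), Stmn2 and BC016495.

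Around the 6 genes stand the factors that make and control let-7, and none of those tested moved past 2-fold. Of 16 such genes 14 were tested, and 0 were higher or lower in any of the 3 comparisons. Among all genes tested, 9.56% were higher and 9.42% lower at P3 over E18.5. These shares were 19.8% and 9.98% at 10 weeks over P3, and 16.1% and 6.92% at 10 weeks over E18.5. Whether the count of 0 differs from these shares was not tested. Dicer1, which cuts the precursors, stood at 7.27, 10.7 and 8.17 FPKM, and Drosha at 9.49, 11.6 and 9.13. The terminal uridylyl transferases that act with Lin28 stood at 13.3, 20.1 and 20.0 FPKM (Zcchc6) and 6.44, 5.39 and 6.29 FPKM (Zcchc11). The ubiquitin ligase gene Trim71, the mouse counterpart of worm lin-41, was at 0.0311, 0.0520 and 0.0248 FPKM and was not tested. The let-7 levels themselves were not measured: of 12 let-7 and mir-98 hairpin rows 8 were listed at 0 at all 3 ages, and hairpins are shorter than sequenced fragments, so that their FPKM is unreliable.

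Other described let-7 targets did not share one direction. Of 28 tested, P3 skin had 0 higher and 1 lower relative to E18.5 (Acvr1c). Skin at 10 weeks had 4 higher and 5 lower relative to P3, and 1 higher and 2 lower relative to E18.5. The shares of all genes higher and lower were 9.56% and 9.42%, then 19.8% and 9.98%, and 16.1% and 6.92%. The median difference of the 28 targets was 0.28, -0.17 and 0.12. The 2 lower over the whole span were Mycn, a growth-promoting transcription factor (9.59, 12.3 and 1.48 FPKM), and the G1 cyclin Ccnd1 (49.8, 75.2 and 24.1). The higher one was the death receptor Fas (2.32, 1.74 and 14.8 FPKM).

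Among RNAs that Igf2bp proteins are described to bind, 9 were tested, Hmga2 itself included. At P3 over E18.5, where 9.42% of all genes were lower and 9.56% higher, 2 of the 9 were lower and 0 higher. These were Igf2, the fetal growth factor that gave the family its name (394, 88.5 and 4.52 FPKM), and the non-coding H19 (2090, 749 and 164). Both were lower again at 10 weeks than at P3, as was Cd44 (44.1, 60.8 and 28.5 FPKM), beside 9.98% of all genes. Igf2 and H19 also stand in the lists of fetal growth and oncofetal genes below. The log2 difference of Igf2 for P3 over E18.5 was -2.14, beside 0.42 for Igf2bp3. The neuronal Mapt (0.536, 0.687 and 2.36 FPKM) was the 1 gene of this list higher at 10 weeks than at E18.5, beside 16.1% of all genes. Mapt reached 1 FPKM at 10 weeks alone, so it was tested only through its highest age. Actb and Myc, further described partners, stood at 458, 759 and 725 FPKM and at 12.4, 24.4 and 18.4 FPKM, and neither passed 2-fold. The m6A enzymes and YTH proteins write, erase and read a mark that Igf2bp proteins can also bind. They had 0 of 12 called in any comparison, beside the shares of all genes given above for the factors that make and control let-7.

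Other RNA-binding proteins of mRNA fate were mostly level, as were most genes. Of 22 tested, 1 was higher and 1 lower at P3, 2 higher and 1 lower at 10 weeks than at P3, and 2 higher and 0 lower at 10 weeks than at E18.5. The shares of all genes higher and lower were 9.56% and 9.42%, then 19.8% and 9.98%, and 16.1% and 6.92%. Zfp36, which promotes decay of AU-rich mRNAs, was the strongest of the 22 (13.3, 37.0 and 247 FPKM), followed by Fmr1 (19.5, 30.2 and 42.5). Caprin1 and G3bp1, stress granule proteins, stood at 69.5, 67.0 and 60.1 and at 64.8, 76.1 and 66.6 FPKM. Other high mobility group genes had 0 of 9 called at P3, 2 lower at 10 weeks than at P3 and 5 lower at 10 weeks than at E18.5, with a median of -1.01 in the last. They included Hmgb3 (50.2, 54.5 and 13.3 FPKM), Hmgb2 (106, 121 and 35.1) and Hmgn2 (256, 150 and 90.3).

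Fetal growth genes that decline after birth in other organs gave a different count from the 6 genes at P3. Of 17 tested, 12 were already lower at P3, beside 9.42% of all genes. Sox11, 1 of the 12, reached 1 FPKM at E18.5 alone (1.97, 0.293 and 0.116 FPKM), so it was tested only through its highest age. The genes were listed because they decline elsewhere, and with earlier results of these data known, so their count is no independent test. Of the 5 genes tested here 0 were lower as reported. With a pseudocount of 0.1 FPKM, the median of ratios or the upper quartile, 2 of 5 were (Igf2bp2 and Hmga2). In plain FPKM, the E18.5 value was 2.16 times the P3 value for Igf2bp2 and 2.62 times for Hmga2. The 1 FPKM added to each value lessens such ratios most in low genes. Of the 17, 16 were lower at 10 weeks than at E18.5, Sox11 among them, beside 6.92% of all genes. Dlk1 stood at 163, 10.9 and 0.306 FPKM and Meg3 at 288, 26.8 and 16.5. Of 12 other oncofetal genes 6 were tested, and the rest were under 1 FPKM at every age. All 6 were lower at P3 and at 10 weeks than at E18.5, beside 9.42% and 6.92% of all genes. Afp passed the minimum at E18.5 alone (6.09, 0.00391 and 0.0412 FPKM). The oncofetal list shares Igf2, H19, Dlk1 and Gpc3 with the list of fetal growth genes. The difference between the lists was not tested.

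The cell types in the pieces of skin moved in the same comparisons, and in bulk RNA fewer cells of a type cannot be told apart from less RNA per cell. Of 8 proliferation markers, 0 passed 2-fold at P3 and 7 were lower at 10 weeks than at P3, with summed FPKM of 445, 484 and 153. Of the keratinocyte markers, 5 of 6 tested were higher at P3 and 5 of 6 lower at 10 weeks than at P3; the P3 values of Krt1 and Krt10 failed. Melanocyte markers were lower in 4 of 5 at 10 weeks than at P3, with summed FPKM of 102, 247 and 30.6. Most members of these 3 lists thus stood lower in the adult than in the newborn, as did Igf2bp2, Igf2bp3 and Hmga1. At 10 weeks over E18.5, where the 3 Igf2bp genes were called lower, 7 of 8 proliferation, 4 of 5 melanocyte and 2 of 8 keratinocyte markers were lower. The fibroblast markers were lower in 6 of 6 at P3, the adipocyte markers in 5 of 6 and the endothelial markers in 5 of 5. Their summed FPKM was 3205, 1158 and 3603, then 5781, 1761 and 7891, and 138, 43.9 and 125, each lowest at P3 as Hmga2 was. Skeletal muscle markers summed to 3782, 316 and 15826 FPKM, with 7 of 8 lower at P3 and 7 of 8 higher at 10 weeks than at P3. Satellite cell and myoblast markers summed to 18.3, 2.28 and 6.88 FPKM. Apart from the failed values of Krt1 and Krt10, no member of these lists was listed at 0. The part of these cell types in the levels of the 6 genes was not tested.

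**Figure D5:**
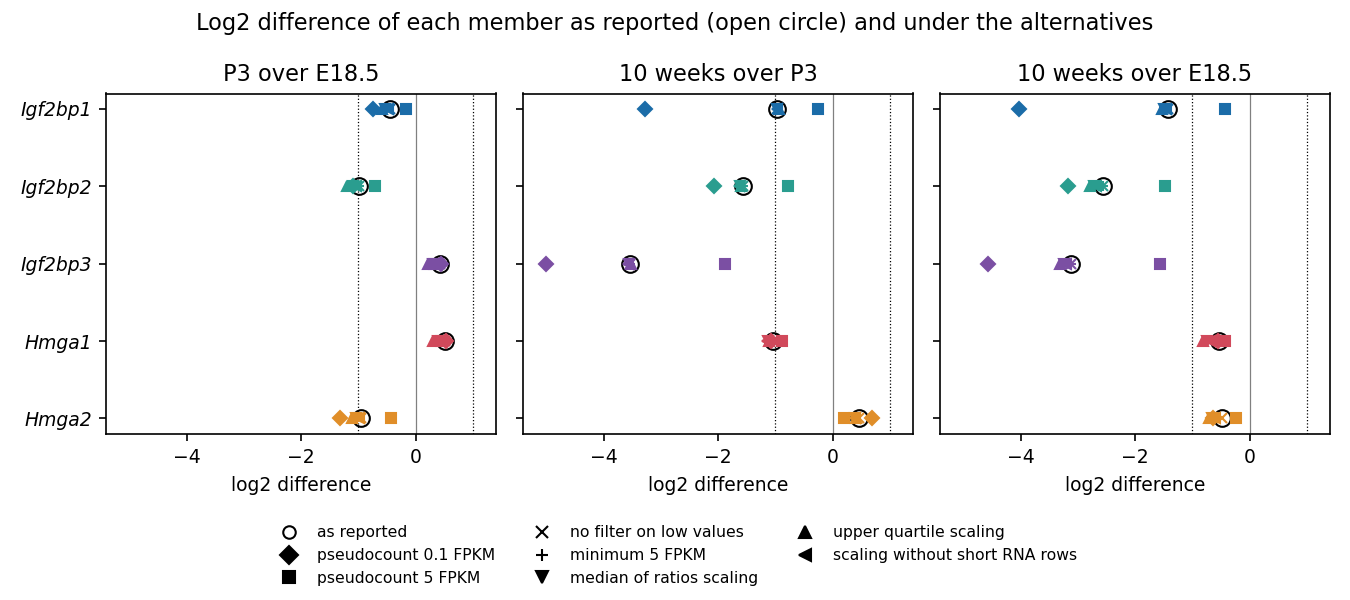
Log2 difference of the 5 genes tested in each pair of ages, as reported (open circles) and under each alternative (filled or crossed symbols); dotted lines mark 2-fold. Values of Igf2bp1 spread most, from -4.03 to -0.42 at 10 weeks over E18.5, whereas those of Igf2bp3 at 10 weeks stay below -1 throughout.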

How the data were processed

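Skin RNA was isolated with Trizol, and 1 ug went into each TruSeq library, per the labels' protocols. The values the authors deposited are FPKM, 1 average for each gene and age, per the file headers. TopHat2 2.0.7, Cufflinks 2.1.1 and the mouse build mm9 are named in the submitters' processing notes. For the annotation, strand setting, depth and shared reads, the entry is: not given in the sources used here. A 0 with a failure status was left out (3 values at E18.5, 7 at P3). Starts in the tables count from 0, so 1 was added. With 1 value per age, log2 differences with a pseudocount of 1 FPKM were computed for genes reaching 1 FPKM at any age (Python 3.11.15, pandas 2.3.3). No test was possible. An item and the results that need it are not reported here. The calling step was checked on simulated data. The 20 gene lists (211 entries) and the members were chosen with earlier results of these data known. Within each list the genes with the largest difference between 10 weeks and E18.5 were named (3, or 2 for lists under 8 genes), plus genes of the members' known pathways. Sequences are from RefSeq (GRCm38.p6) and GENCODE M21 (GRCm38), and no coordinates were moved between builds.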

Additional observations from a re-analysis of the deposited data

How the results depend on the processing

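Alternatives in pseudocount, filter and scaling were computed, and 1 more, over all genes without chromosomes X and Y, was added after the data were seen. No member's difference reversed in any of them, but these settings could not have reversed one. A pseudocount or filter cannot change a sign. The largest scaling shift was -0.30 (upper quartile, 10 weeks over E18.5), below the smallest difference of the 5 genes in size (0.42). Of 75 member differences recomputed with another pseudocount or scaling, 64 stayed on the same side of 2-fold. The number of the 5 genes past 2-fold at P3 over E18.5, 0 as reported, was 2 with a pseudocount of 0.1 FPKM, the median of ratios or the upper quartile (Igf2bp2 and Hmga2, both lower), and 1 with scaling without short RNA rows (Igf2bp2). At 10 weeks over P3, 3 as reported, it was 1 with a pseudocount of 5 FPKM (Igf2bp3) and 4 with 0.1 FPKM (Igf2bp1 added). At 10 weeks over E18.5, 3 as reported, it was 2 with a pseudocount or a minimum of 5 FPKM (without Igf2bp1). Over all genes, a pseudocount of 5 FPKM gave 842 higher and 626 lower at P3 over E18.5, 1596 and 898 at 10 weeks over P3, and 1274 and 561 at 10 weeks over E18.5; a pseudocount of 0.1 FPKM gave 2155 lower at P3 over E18.5. Upper quartile scaling left 37.4% of the calls in the higher direction at P3 over E18.5 (50.4% as reported) and 56.9% at 10 weeks over E18.5 (69.9%). Scaling by the median of ratios moves every log2 ratio by -0.12, -0.10 and -0.22 in the 3 comparisons. Beyond what each setting does by construction, the cause was not tested. No replicate could be left out, since each age has 1 averaged value. No paired analysis was possible because the tables carry no replicate columns. Depth is unknown, which limits Igf2bp1 and Lin28b most.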

Other observations

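The nearest row on each side that passed the minimum was taken for the 6 genes, 12 neighbours in all. At 10 weeks over E18.5, 0 of them were called lower, beside 6.92% of all genes, so that a count of 0 is near the background; of the 6 genes themselves the 3 Igf2bp genes were called there. The neighbours of Igf2bp3, 2410003K15Rik and Tra2a, stood at 20.1, 20.5 and 27.0 FPKM and at 64.6, 55.0 and 51.5 FPKM at E18.5, P3 and 10 weeks. Those of Igf2bp2, Senp2 and Tra2b, stood at 11.9, 17.3 and 13.6 and at 104, 106 and 73.7 FPKM. Bves, 6.91 kb from Lin28b, was at 2.40, 0.404 and 6.38 FPKM. Bves and also AI413582 and Msrb3, beside Hmga1 and Hmga2, were called higher at 10 weeks than at E18.5. Their log2 differences were 1.12, 1.25 and 1.75, and 16.1% of all genes were called higher there.

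Genes were also grouped by the number of let-7 seed matches in the 3' UTR, after the data were seen. Of 20943 genes 32 hold 3 or more, and 15 of these that are not among the 6 genes were tested. At P3 over E18.5 the share called lower was 8.79% of genes with 0 matches, 6.75% with 1, 5.11% with 2, and 0 of the 15 with 3 or more, with median differences of 0.05, 0.08, 0.13 and -0.28. At 10 weeks over P3 it was 9.50%, 9.29%, 10.2% and 1 of 15, with medians of 0.15, 0.13, 0.09 and 0.56. At 10 weeks over E18.5 it was 5.64%, 4.82%, 3.62% and 0 of 15, with medians of 0.23, 0.24, 0.21 and 0.41. A group of 15 is too small to set its count apart from these shares. The 1 gene of the 15 that was higher at 10 weeks than at E18.5 was Ptafr, a receptor for platelet-activating factor found on myeloid cells (1.71, 0.907 and 24.1 FPKM). Others were Nr6a1, with 8 matches (0.868, 1.70 and 1.48 FPKM), and Hic2, with 4 (1.39, 0.786 and 0.951 FPKM).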
